A study of Mus musculus with 8 samples.

Results

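The genes described here encode the coat and the surface of the mouse egg: the zona pellucida proteins Zp1, Zp2 and Zp3, the surface proteins Cd9 and Izumo1r, and 2 proteases that the egg secretes, Astl and Plat. All 7 genes were found by their symbol in the annotation of the platform. They are read by 8 probe sets, with 2 probe sets for Plat and 1 for each of the other genes. All 8 lay in the tested upper 50% of probe sets by mean log2 signal.

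The series title ties the study to maternal BRG1, a chromatin remodelling ATPase encoded by Smarca4, and to the start of transcription from the embryo's genome. Each sample was total RNA of 20 pooled whole embryos at the 2-cell stage. The labels call 4 samples wild type and the other 4 Brg1 mutant, and these are the groups set against each other here. The labels name neither the strain, the age of the mothers, the allele nor any Cre driver. The published study is known, as background, to have removed Brg1 in growing oocytes with a Cre transgene under the Zp3 promoter. Whether that transgene touches the Zp3 signal was not tested. Samples are called biological replicates in the labels, and nothing further says how separate they were, so that every p-value rests on the spread among these 8 samples, which may be technical.

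The zona pellucida is the extracellular matrix around the mammalian egg. Its proteins are made by the growing oocyte, each with a polymerising ZP domain, and are released from a membrane-anchored precursor by cleavage at a furin-type site. Their messages are oocyte products that are degraded as the egg matures and the embryo begins development. Izumo1r encodes JUNO, the GPI-anchored receptor for sperm IZUMO1, and Cd9 is a tetraspanin of the egg membrane needed for gamete fusion. Astl encodes ovastacin, a cortical granule metalloprotease that cleaves ZP2 after fertilization and so blocks further sperm binding. Plat encodes tissue plasminogen activator, the classical example of an oocyte message that is stored with a short poly(A) tail and translated during maturation.

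Promoters are shown for every member with a window at hand, because the zona genes are regulated through an E-box bound by FIGLA and its E-protein partners. RefSeq windows on GRCm38.p6, running from 250 bases before to 50 bases after an annotated start, were at hand for 4 of the 7 members, Zp3, Astl, Izumo1r and Cd9. Capitals mark each match to the E-box letters CANNTG, a pattern that is its own reverse complement. The Zp3 window is chr5:135979855-135980154 on the plus strand, the Izumo1r window chr9:14903718-14904017 on the minus strand and the Cd9 window chr6:125494711-125495010 on the minus strand. Of 2 windows listed for Astl, the one shown is chr2:127341386-127341685 on the plus strand.
Zp3: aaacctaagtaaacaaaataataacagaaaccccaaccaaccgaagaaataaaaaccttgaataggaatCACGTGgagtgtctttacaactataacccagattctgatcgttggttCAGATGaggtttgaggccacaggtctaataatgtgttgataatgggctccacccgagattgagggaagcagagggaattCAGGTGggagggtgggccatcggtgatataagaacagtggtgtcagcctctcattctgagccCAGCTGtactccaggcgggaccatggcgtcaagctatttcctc
Astl: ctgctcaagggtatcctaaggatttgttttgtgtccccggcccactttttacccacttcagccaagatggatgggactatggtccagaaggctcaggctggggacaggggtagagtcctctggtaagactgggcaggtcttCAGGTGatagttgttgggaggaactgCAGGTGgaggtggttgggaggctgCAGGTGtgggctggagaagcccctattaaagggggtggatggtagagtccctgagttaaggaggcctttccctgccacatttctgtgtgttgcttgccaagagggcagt
Izumo1r: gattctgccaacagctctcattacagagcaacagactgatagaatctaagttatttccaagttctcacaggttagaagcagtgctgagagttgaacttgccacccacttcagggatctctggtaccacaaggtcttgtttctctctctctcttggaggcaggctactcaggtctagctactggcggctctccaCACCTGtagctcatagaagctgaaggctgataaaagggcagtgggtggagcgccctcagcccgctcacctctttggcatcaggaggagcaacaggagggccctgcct
Cd9: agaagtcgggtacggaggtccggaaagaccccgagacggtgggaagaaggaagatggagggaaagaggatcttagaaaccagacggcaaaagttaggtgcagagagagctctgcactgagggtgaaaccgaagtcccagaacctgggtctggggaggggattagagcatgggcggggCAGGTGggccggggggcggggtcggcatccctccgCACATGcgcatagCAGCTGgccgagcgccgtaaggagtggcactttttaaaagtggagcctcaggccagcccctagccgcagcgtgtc
The Zp3 window held 4 CANNTG matches, the Astl window shown 3, all CAGGTG, the Izumo1r window 1 and the Cd9 window 3. The other Astl window held 0. Such a match is common, since 72.3% of the 32817 promoter windows of this length held at least 1. The Zp3 match farthest from the start begins 181 bases upstream and reads CACGTG, letters that 7.15% of the windows held and that none of the other member windows did. CACGTG was singled out after the sequence had been seen, and it overlaps CANNTG by construction. The letters TATAAA, searched on both strands, were in 0 of the 5 member windows and in 13.6% of all windows. A match describes these letters and is no evidence of a binding site.

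Before the members, the arrays need a short description. The authors' MAS5 signals share a trimmed mean of 150 on all 8 arrays, and array medians ran from 36.3 to 47.6. The brighter of 2 Smarca4 probe sets was lower in every mutant sample (log2 change -1.26, SE 0.249, limma adjusted p = 0.0211), and the other was not (log2 change 0.04, limma adjusted p = 0.963). Hybridisation spike-in signal, divided by its wild type mean, was 4.81 and 3.37 in mutant replicates 1 and 2 and 1.24 and 0.713 in mutant replicates 3 and 4. The 3′ to 5′ signal ratio of actin control probe sets, a sign of RNA integrity and labelling, was 16.3 to 21.1 in wild type samples, 12.9 and 15.0 in mutant replicates 1 and 2, and 7.04 and 4.88 in replicates 3 and 4. That of Gapdh was 8.58 to 10.1 in wild type and 6.63 to 7.33 in mutant samples. The part of these ratios in the results was not tested. Mutant replicates 3 and 4 carried signal of granulosa and cumulus markers, the somatic cells that surround the egg. Summed over the 17 of 19 markers with a probe set, it was 19071 and 22722 there, 1371 to 2185 in mutant replicates 1 and 2, and 1923 to 2749 in the wild type samples. The steroidogenic enzyme gene Hsd3b1 read 8835 and 6889 on those arrays and at most 50.5 on the others. Of the 17 markers, 11 were higher on both of those arrays than on all others and 6 were not, among them Amhr2 (1358.5 and 1451.3, against 642.6 to 2017.8 elsewhere) and the cumulus genes Has2 (17 and 26.9, against 12.9 to 26.3) and Ptx3 (4 and 3.6, against 4.6 to 19.6). The cumulus gene Tnfaip6 was among the 11 (107.1 and 123.7, against at most 56.9). The steroidogenic enzyme gene Cyp11a1 was among the 6 (30.1 and 39.4, against 25.8 to 59.7). No marker read exactly 0 on any array. Summed oviduct markers overlapped between mutant and wild type samples. Sperm markers summed to 803.1 and 838.9 in mutant replicates 3 and 4 and to at least 1209.6 elsewhere, and blood markers to 791.2 and 851.5 against at most 379.9. Odf2 was the largest part of the sperm sum (531 and 577.7, against 767.3 to 1377.7). Acr, Acrv1, Tnp2 and Zpbp2 were also lower there, and the other sperm markers overlapped. Cd52 was the largest part of the blood sum there (360.4 and 453.1, against at most 48.2). Lyz2 and Ptprc were also higher, whereas Laptm5, Hba-a1, Alas2 and Coro1a overlapped. The members are therefore given for each mutant pair as well. Since MAS5 scales each array to the same total, fewer embryonic cells and less RNA of a gene per cell cannot be told apart.

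Of the 8 member probe sets, 1 rose in the Brg1 mutant samples, that of Plat, and 0 fell. Over all 22518 tested probe sets 2.98% were called higher and 3.58% lower (6.56% in either direction), so that 1 call among 8 stands close to the background. The median log2 change of the 8, which count Plat by 2 probe sets, was 0.40, against -0.05 over all tested probe sets. Of the 8, 5 were above 0, as were 5589 of 11934 genes. This median depended on the mutant pair. Without mutant replicates 3 and 4 it was 0.82 (6 of 8 above 0), against 0.05 over all tested probe sets. Without mutant replicates 1 and 2 it was -0.20 (3 of 8 above 0), against -0.20 over all. With mutant replicates 3 and 4 left out, 2 rose, Plat and Zp1, and 0 fell, where 3.6% of all tested probe sets were called higher and 3.11% lower (6.71% in all). With mutant replicates 1 and 2 left out, Plat rose, the other 7 probe sets did not pass, and 18.3% of all were called higher and 23.2% lower (41.6% in all).

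**Figure D1:**
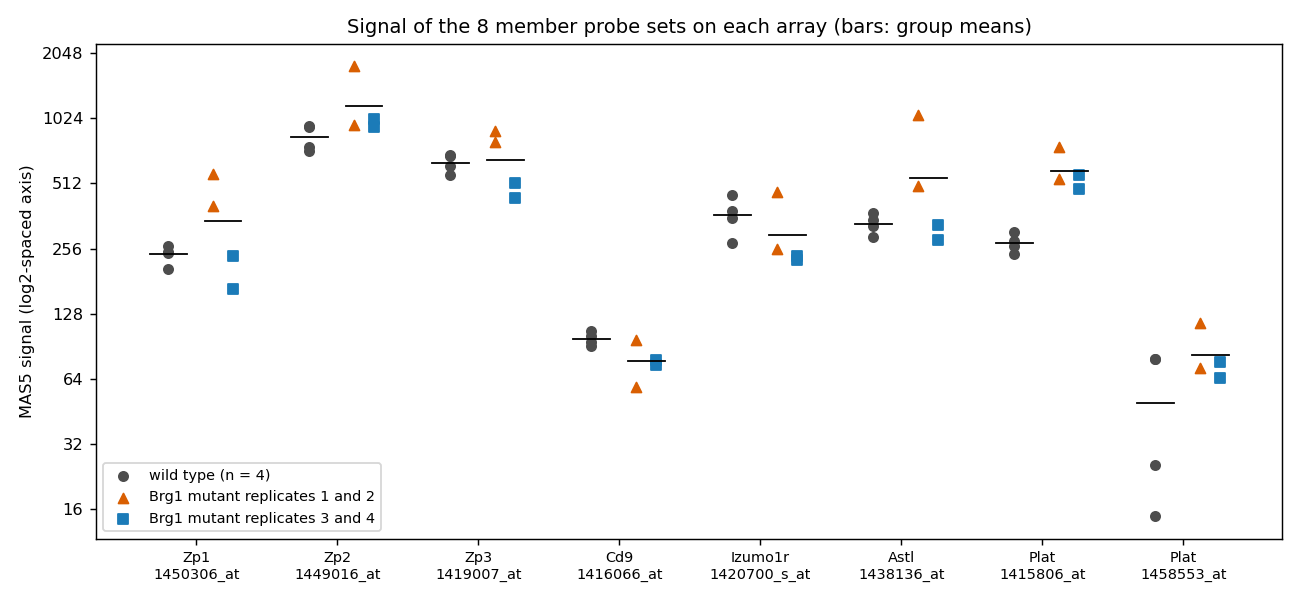
MAS5 signal of the 8 member probe sets, 1 point per array on a log2-spaced axis, with wild type as circles, mutant replicates 1 and 2 as triangles and mutant replicates 3 and 4 as squares, and group means as bars. The 4 mutant values of the first Plat probe set, 484.6 to 753.3, all lie above the wild type values, whereas for Zp3 one mutant pair lies above and the other below all wild type samples.

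Plat showed the clearest difference. On the better detected of its probe sets, wild type samples read 263.3, 241.4, 305.1 and 276.8. Mutant replicates 1 to 4 read 534.6, 753.3, 484.6 and 557.8. Every mutant sample was above every wild type sample, which was true of 7.83% of all tested probe sets. The reverse, every mutant below every wild type sample, was true of 0 members and of 9.67% of all (17.5% in either direction). The wild type mean was 272 ± 26.6 and the mutant mean 583 ± 118 (SD, n = 4 each), a 2.12-fold rise (log2 change 1.09, SE 0.224, 95% interval 0.59 to 1.58, limma adjusted p = 0.0237). Mutant replicates 1 and 2 alone gave a log2 change of 1.23 (limma adjusted p = 0.0243), and replicates 3 and 4 alone 0.94 (limma adjusted p = 0.00447). The rise passed in both fits. The pairs differ in granulosa marker, spike-in and 3′ to 5′ signal as given above, and the part of these in the Plat values was not tested.

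In the 8 fits that left out 1 sample, the log2 change of Plat lay between 0.96 and 1.17, and the call ended in 6 of them: the limma adjusted p was 0.0853, 0.0618, 0.0652 and 0.0758 when wild type replicate 1, 2, 3 or 4 was absent, and 0.0528 and 0.0614 when mutant replicate 3 or 4 was. It also ended with arrays centred on the 75th percentile (log2 change 0.94, limma adjusted p = 0.0522) and, at a log2 change of 0.56, when arrays were centred on 18 other oocyte transcripts (limma adjusted p = 0.115), a scale on which 0.697% of all tested probe sets were called higher and 21% lower (21.7% in all). That scale lowers mutant values by construction, since the 18 were 0.53 log2 units higher on average in the mutants, and 0.26 without Zar1 and H1f8, known to be higher when the list was chosen. Centred on the other 16, Plat missed the threshold (log2 change 0.82, limma adjusted p = 0.08), where 0.644% of all tested probe sets were called higher and 7.63% lower (8.27% in all).

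The second Plat probe set, which matches an EST, was dim. Wild type samples read 14.9, 78.8, 25.6 and 79.1, with 2 of 4 above the bound on background set by Bacillus control probe sets, and mutant samples 71.8, 116.1, 64.6 and 76.5. The groups overlapped, and the wild type values were widely spread. Its log2 change of 1.03 was close to that of the first probe set but did not pass (SE 0.539, 95% interval -0.16 to 2.22, limma adjusted p = 0.262). The log2 change was 1.22 for mutant replicates 1 and 2 and 0.84 for replicates 3 and 4 (limma adjusted p = 0.293 and 0.333).

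The zona genes did not pass the test over all 8 arrays, and their mutant values split by pair. Zp1, which cross-links the zona filaments, read 206.5, 245.4, 247.4 and 263.8 in wild type samples and 404.9, 565.7, 236.7 and 167.4 in mutant replicates 1 to 4. The first mutant pair was above all wild type samples, replicate 3 fell among them and replicate 4 below them. Group means were 241 ± 24.3 and 344 ± 178 (SD, n = 4 each; log2 change 0.36, SE 0.359, 95% interval -0.43 to 1.16, limma adjusted p = 0.573). Without mutant replicates 3 and 4, Zp1 rose, with a log2 change of 0.997 (SE 0.255; limma adjusted p = 0.0473), and without replicates 1 and 2 its log2 change was -0.27 (limma adjusted p = 0.366). Over all arrays it was -0.16 centred on the 18 other oocyte transcripts and 0.10 centred on 16 of them, without Zar1 and H1f8.

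Zp2, the zona protein to which sperm bind and which ovastacin cleaves, read 752.9, 724.6, 937.9 and 939.2 in wild type samples. Mutant replicates read 948.1, 1776.1, 1019.8 and 936.2. Of these 4 values 3 exceeded every wild type value, and replicate 2 stood apart. Group means were 839 ± 116 and 1170.1 ± 406 (SD, n = 4 each; log2 change 0.44, SE 0.263, 95% interval -0.15 to 1.02, limma adjusted p = 0.331). The log2 change was 0.64 for mutant replicates 1 and 2 and 0.23 for replicates 3 and 4 (limma adjusted p = 0.195 and 0.348), and over all arrays -0.092 centred on the 18 other oocyte transcripts and 0.17 centred on the 16.

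Zp3, which with Zp2 forms the repeating unit of the zona filaments, read 689.2, 683.5, 559.7 and 617.8 in wild type samples and 795.2, 893.2, 436.7 and 513.6 in the mutants. Here the first mutant pair was above, and the second below, all wild type samples, an arrangement that 4.36% of all tested probe sets had. Over all arrays the means were 638 ± 61.2 and 659.7 ± 219 (SD, n = 4 each) and the log2 change -0.0080, with a 95% interval of -0.61 to 0.59 (limma adjusted p = 0.99). The pairs gave 0.41 and -0.42 (limma adjusted p = 0.285 and 0.0948). Neither pair passed, and the difference between the pairs was not tested for any gene, because the division of the mutant samples was made after the granulosa signal had been seen.

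**Figure D2:**
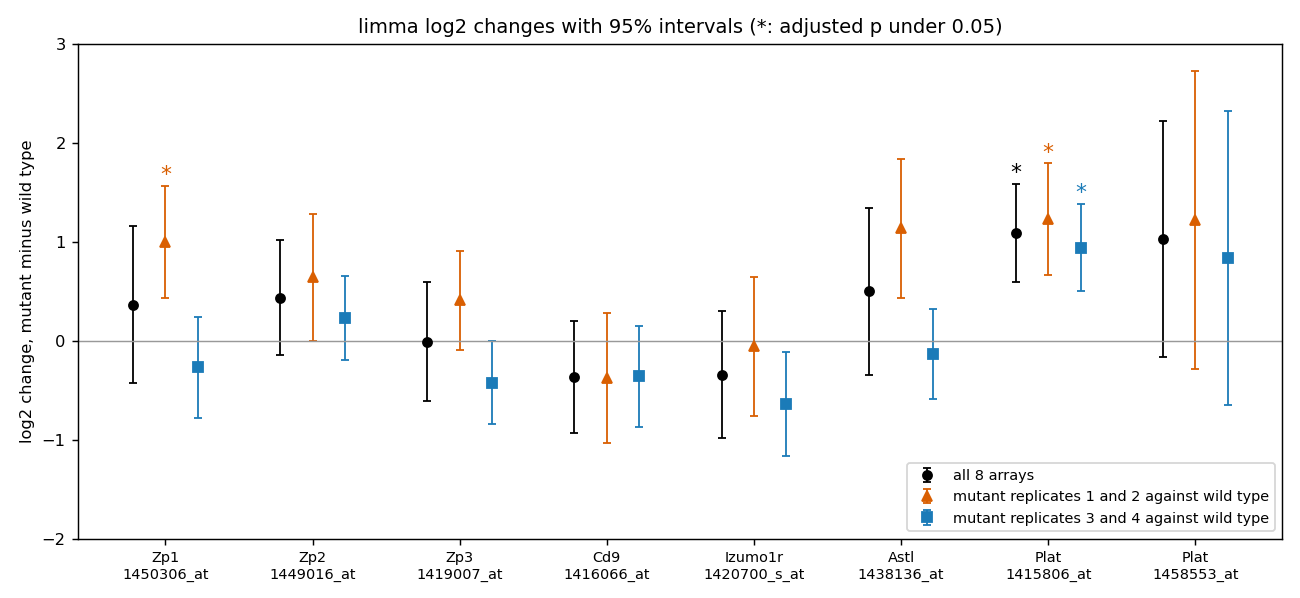
limma log2 change of each member probe set, mutant minus wild type, with its 95% interval, for all 8 arrays (circles), mutant replicates 1 and 2 against wild type (triangles) and mutant replicates 3 and 4 against wild type (squares); a star marks an adjusted p under 0.05. The first Plat probe set is starred in all 3 fits and Zp1 in the fit with mutant replicates 1 and 2.

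Astl did not pass, and its mutant values split by pair as those of Zp1 did. Wild type samples read 348.6, 289.3, 373.6 and 324.3, and mutant replicates 1 to 4 read 500.7, 1064.2, 328.3 and 279.8. Replicates 1 and 2 were above all wild type samples, replicate 3 was among them and replicate 4 below. Means were 334 ± 35.9 and 543 ± 360.0 (SD, n = 4 each; log2 change 0.50, SE 0.381, 95% interval -0.34 to 1.34, limma adjusted p = 0.452). The log2 change was 1.13 for mutant replicates 1 and 2 (limma adjusted p = 0.0603) and -0.13 for replicates 3 and 4 (limma adjusted p = 0.618).

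Izumo1r, read by a probe set that may share its sequence with other transcripts (suffix _s_at), did not pass in any of these 3 fits. It read 354.9, 272.7, 380.6 and 450.4 in wild type and 255.3, 466.2, 236.3 and 226 in mutant samples. Of the mutant samples 3 were below every wild type sample and replicate 2 was above every one. Means were 365 ± 73.4 and 296 ± 114 (SD, n = 4 each; log2 change -0.35, SE 0.29, 95% interval -0.99 to 0.30, limma adjusted p = 0.5). Mutant replicates 3 and 4 alone gave -0.64, short of the threshold (limma adjusted p = 0.0541), and replicates 1 and 2 alone -0.06. Centred on the 18 other oocyte transcripts it was called lower (log2 change -0.87, limma adjusted p = 0.0273), and centred on the 16 without Zar1 and H1f8 it was not (log2 change -0.61, limma adjusted p = 0.16).

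Cd9 did not pass either, with wild type values of 106.3, 100.6, 91 and 95.2 and mutant values of 97.4, 58.8, 74.4 and 78.6. Mutant replicates 2, 3 and 4 were below every wild type sample and replicate 1 was among them. Means were 98.3 ± 6.64 and 77.3 ± 15.9 (SD, n = 4 each; log2 change -0.37, SE 0.258, 95% interval -0.94 to 0.20, limma adjusted p = 0.41). The log2 change was -0.37 for the first mutant pair and -0.36 for the second (limma adjusted p = 0.459 and 0.232). On the arrays with high granulosa marker signal Cd9 read 74.4 and 78.6, below all wild type values.

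Read across arrays, the members of a pair were not uniform. Mutant replicates 1 and 2 were both above all wild type samples on 5 of 8 member probe sets, where 20.2% of all tested probe sets were, and both below on 0 (15.1% of all). Mutant replicates 3 and 4 were both above on 1 (24.9% of all) and both below on 3, those of Zp3, Izumo1r and Cd9 (34.5% of all). In either direction these shares were 35.2% of all for the first pair and 59.4% for the second. The mean log2 signal of Zp1, Zp2 and Zp3 stood 0.42 and 0.94 above the wild type mean in mutant replicates 1 and 2, and -0.09 and -0.22 from it in replicates 3 and 4. The mean of the 18 other oocyte transcripts tested stood 0.76 and 1.11 above its wild type mean in replicates 1 and 2, and 0.19 and 0.046 above it in replicates 3 and 4, where the zona mean was below. Spike-in signal was highest on the same arrays, mutant replicates 1 and 2, and its part in these values was not tested. Plat exceeded the zona mean by 0.56, 0.54, 0.93 and 1.26 log2 units in mutant replicates 1 to 4, measured from the wild type mean, and by -0.14 to 0.16 in the wild type samples. The wild type samples were not uniform either. For the 18 oocyte transcripts, wild type replicates 1 to 4 stood -0.14, -0.20, 0.23 and 0.11 from their mean. Wild type replicates 1 and 2 were both below replicates 3 and 4 for Zp2 and both above them for Zp3. Each mutant pair was set against all 4 wild type samples, and this wild type division was not tested.

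**Figure D3:**
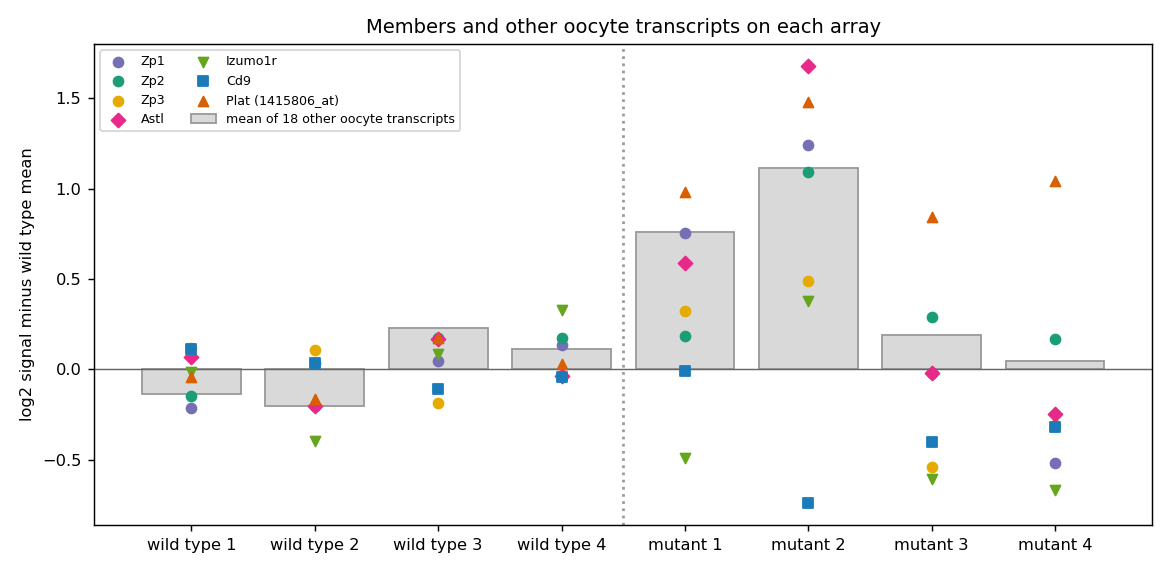
Log2 signal minus the wild type mean for each member (points) and for the mean of 18 other oocyte transcripts (bars) on each of the 8 arrays. Plat is shown by its first probe set. In mutant replicates 1 and 2 the bars reach 0.76 and 1.11 with Zp1, Zp2, Zp3 and Astl above 0, while in replicates 3 and 4 Plat stands at 0.84 and 1.04 and Zp2, the next highest, at 0.29 and 0.17.

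The genes with profiles most like those of the members over the 8 samples were ranked by Pearson's r of log2 signal, a description of samples that share groups and scaling. For the mean of Zp1, Zp2 and Zp3 these were Rnf187 (r = 0.993), Zfp541 (r = 0.993), Erf (r = 0.991), Olfm4 (r = 0.985) and Ninj1 (r = 0.984). None of these 5 passed the mutant test (limma adjusted p from 0.355 to 0.752). The most alike for Astl were B4galt2 (r = 0.993) and Fer (r = 0.982), for Izumo1r Lin54 (r = 0.970) and Rhoh (r = 0.966), and for Cd9 Grb2 (r = 0.991) and Mrpl4 (r = 0.988). For Plat they were Snx18 (r = 0.991) and Clcc1 (r = 0.987), which both rose (log2 change 1.12 and 1.08, limma adjusted p = 0.021 and 0.0201).

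Genes that act with the members were read from lists of zona synthesis and processing, ZP domain proteins, astacin proteases, tetraspanins, integrins, folate receptors, the plasminogen system and cortical granule exocytosis. Of their 58 tested genes, 3 rose, 4 fell and 51 did not pass, which is 12.1% called where 7.04% of all 11934 genes were (3.01% higher, 4.03% lower). The median log2 change was 0.22, against -0.05 over all genes. These lists were chosen with earlier results of these data known, so the share called adds no support. Without mutant replicates 3 and 4, 3 of the 58 rose and 4 fell (3.86% of all genes higher and 3.58% lower, 7.44% in all). Without mutant replicates 1 and 2, 19 rose and 12 fell (19.2% of all genes higher and 24.4% lower, 43.5% in all).

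Among 11 genes of zona synthesis and processing, 1 rose, 1 fell and 9 did not pass. Furin, the prototype of the convertases that cleave zona precursors, read 142.2, 146.9, 144.8 and 108 in wild type and 234.3, 317, 370.1 and 322.4 in mutant samples. It rose 2.28-fold with no overlap of the groups (limma adjusted p = 0.0226), and did not pass without mutant replicates 3 and 4 (limma adjusted p = 0.0517). Tcf12, an E-protein of the class that pairs with FIGLA, read 725.3, 837.7, 827.8 and 805.7 in wild type and 340.1, 428.8, 207.3 and 249.6 in mutant samples, and fell 2.71-fold (limma adjusted p = 0.0179). It passed in both pairs (limma adjusted p = 0.0267 and 0.000103), though its other probe set did not pass over all arrays. Figla itself was too dim to be tested, at 2.4 to 30.9 in wild type and 21.2 to 37.5 in mutant samples and above the background bound on 2 of 8 arrays.

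Of 12 tetraspanins and partners of CD9, 0 passed. Ptgfrn and Igsf8, immunoglobulin-superfamily partners of CD9, and Cd81, its close relative on the egg, had log2 changes of 1.57, 0.62 and 2.64 (limma adjusted p = 0.2, 0.591 and 0.134). Ptgfrn read 352 and 360.2 in mutant replicates 3 and 4 and at most 50.6 elsewhere, and Cd81 538.6 and 565.4 against at most 35.2. Igsf8 read 275.9 and 274.9 there and at most 91.3 elsewhere. Without mutant replicates 1 and 2, all 3 passed (limma adjusted p = 3.84e-05 for Ptgfrn, 7.66e-05 for Cd81 and 0.000327 for Igsf8). In that fit 6 of the 12 genes rose and 3 fell, where 19.2% of all genes were called higher and 24.4% lower (43.5% in all). Ptgfrn, Cd81 and Igsf8 were high on the arrays with high granulosa marker signal, and the part of that signal in the values was not tested. Tspan9, another tetraspanin, had a log2 change of 0.79 (limma adjusted p = 0.114) and passed without mutant replicates 3 and 4 (log2 change 1.17, limma adjusted p = 0.0271).

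Of 8 egg integrins, 1 rose and 1 fell. Itga9, whose subunit has been studied as a partner of sperm ADAM proteins, read 1453, 1386.8, 1649.9 and 1661.4 in wild type and 571.7, 491.1, 537.5 and 649.3 in mutant samples. It fell 2.74-fold with both pairs alike (log2 change -1.53 for replicates 1 and 2 and -1.38 for replicates 3 and 4; limma adjusted p = 0.00921 over all arrays), and 1 of its 2 other probe sets fell too. Itgb1, the common beta chain, rose 3.18-fold (limma adjusted p = 0.031), from 49.2 to 144.8 in wild type to 193.4 to 323 in mutant samples. Without mutant replicates 3 and 4 it did not pass (log2 change 1.42, limma adjusted p = 0.0846).

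The folate receptor relatives of Izumo1r gave 1 fall in 2 genes. Folr1, a cell surface folate carrier, read 761.7, 591.8, 377.6 and 380.4 in wild type and 330.8, 208.3, 179 and 158.7 in mutant samples (2.40-fold lower, limma adjusted p = 0.0441), and did not pass without mutant replicates 3 and 4 (limma adjusted p = 0.131). Folr2 had a log2 change of 0.10 (limma adjusted p = 0.908), with the opposite sign under each of the other scalings. The astacin relatives of Astl, Tll1 and Mep1a among 3 tested, did not pass (log2 change -0.69 and 0.31, limma adjusted p = 0.272 and 0.666), nor did the ZP domain genes Tgfbr3 and Cuzd1 (log2 change -0.56 and -0.26, limma adjusted p = 0.132 and 0.813). Without mutant replicates 1 and 2, Tll1 fell (log2 change -1.17, limma adjusted p = 0.00949). Bmp1, the remaining astacin gene tested, rose in that fit (log2 change 1.55, limma adjusted p = 0.0132), where 43.5% of all genes were called. Over all arrays Bmp1 did not pass (log2 change 0.32, limma adjusted p = 0.817).

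In the plasminogen system, 1 of 5 tested genes rose. S100a10, which with annexin A2 binds plasminogen and its activator at cell surfaces, lay under the background bound on all 4 wild type arrays and read 59.7, 32.1, 1601.3 and 1513.3 in mutant replicates 1 to 4. It was at least 10.8-fold higher in the mutants (limma adjusted p = 0.0431), where replicate 2 was itself under its array's bound. Against replicates 3 and 4 alone the difference was at least 64.2-fold, and without them S100a10 did not pass (limma adjusted p = 0.161). Anxa2 missed the threshold (log2 change 2.30, limma adjusted p = 0.0994), at 1731.1 and 1679.9 in mutant replicates 3 and 4 and at most 165.5 elsewhere. Both were high where granulosa marker signal was high, and its part in the values was not tested. Plau, the urokinase-type relative of Plat, was too dim to be tested, at 37.5 to 61.8 in wild type and 8.3 to 58.8 in mutant samples.

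Of 15 cortical granule exocytosis genes, 1 fell and 0 rose. Rab27a, a small GTPase of secretory granule traffic, read 546.4, 417.3, 485.2 and 549.8 in wild type and 255.1, 260, 178.9 and 237.1 in mutant samples. It fell 2.16-fold (limma adjusted p = 0.023) and in both pairs (limma adjusted p = 0.0445 and 0.00155), although 0 of its 2 other probe sets passed. The syntaxin gene Stx4a missed the threshold (log2 change 1.35, limma adjusted p = 0.0614) and passed without mutant replicates 1 and 2 (log2 change 1.79, limma adjusted p = 0.00269).

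Beside these, 18 other oocyte transcripts were tested, of which 4 rose, 1 fell and 13 did not pass, with a median log2 change of 0.28 (27.8% called, against 7.04% of all genes). The choice of this list followed earlier results that had shown Zar1 and H1f8 to differ, so their calls add no support. Zar1, which encodes an oocyte RNA-binding protein, was 6.77-fold higher (limma adjusted p = 0.000674) and the oocyte linker histone gene H1f8 5.77-fold (limma adjusted p = 0.00771). Zfp57 rose 2.53-fold (limma adjusted p = 0.0264) and the growth factor gene Gdf9 2.40-fold (limma adjusted p = 0.0343). Dazl, which encodes an RNA-binding protein of germ cells, fell 2.59-fold (limma adjusted p = 0.031) and did not pass without mutant replicates 3 and 4 (limma adjusted p = 0.0571). The other tested probe set of Dazl was not called lower over all arrays. Without mutant replicates 3 and 4, 9 of the 18 rose and 0 fell, against 7.44% of all genes called. Without replicates 1 and 2, 6 rose and 4 fell, where 43.5% of all genes were called. Zar1, H1f8, Zfp57 and Gdf9 passed in both of these fits.

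**Figure D4:**
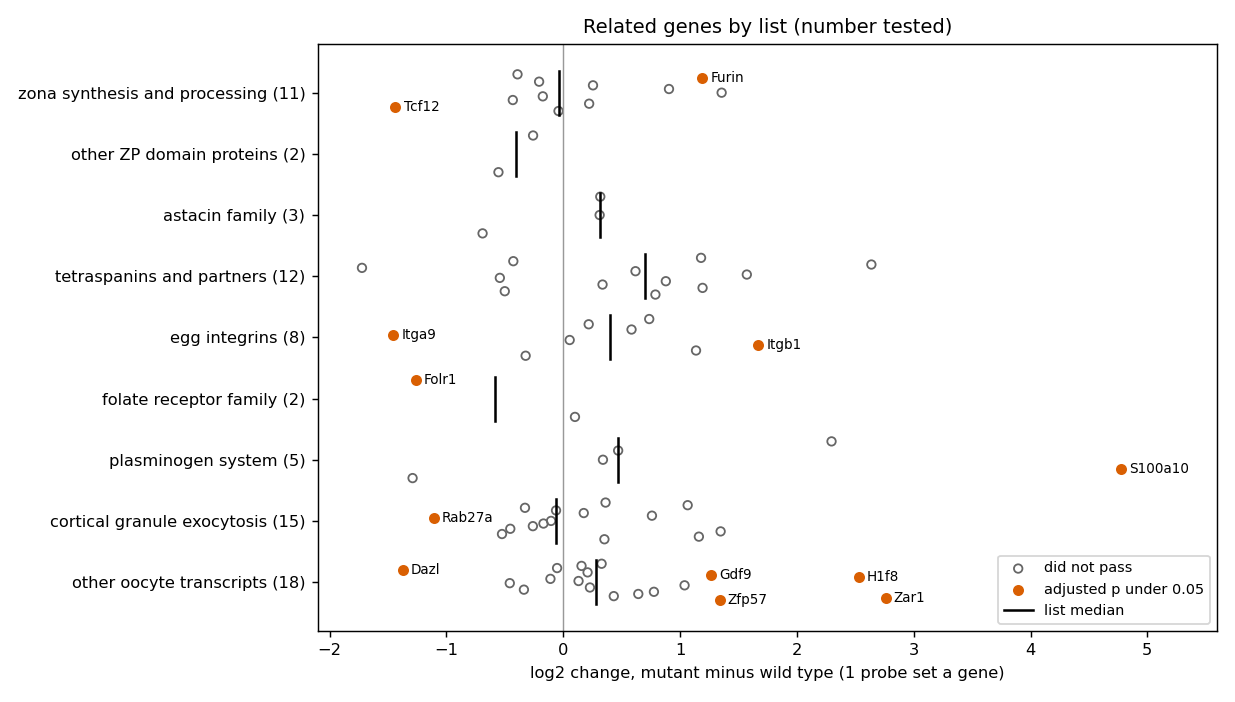
limma log2 change, mutant minus wild type, of each tested gene of the 9 lists (1 probe set a gene), with list medians as vertical bars and genes that passed filled and named. Filled points lie on both sides of 0, with Itga9, Tcf12, Dazl, Folr1 and Rab27a to the left and Furin, Itgb1, S100a10, Gdf9, Zfp57, H1f8 and Zar1 to the right; the fitted position of S100a10 depends on wild type values under the background bound.

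Calls on these genes also moved with single samples. Zar1 and H1f8 passed in all 8 fits that left out 1 sample, and Itga9 in 7, failing without wild type replicate 4 (limma adjusted p = 0.0518). Tcf12, Rab27a and Itgb1 passed in 3 of the 8, those without wild type replicate 2 or mutant replicate 1 or 2, with limma adjusted p up to 0.0648, 0.0875 and 0.0981 in the rest. Furin, Folr1, S100a10, Zfp57, Dazl and Gdf9 passed in 2, those without mutant replicate 1 or 2, with limma adjusted p up to 0.0793, 0.133, 0.121, 0.0884, 0.0979 and 0.113 in the rest. Scaling and filtering ended further calls. Folr1 and S100a10 did not pass with quantile normalization (limma adjusted p = 0.0559 and 0.0605) or without a filter (0.0594 and 0.0615). Gdf9 did not pass with centring on the median (limma adjusted p = 0.0592), on the 75th percentile (0.072) or without a filter (0.0557). Centred on the 18 oocyte transcripts, Furin, Itgb1, Zfp57 and S100a10 did not pass (limma adjusted p = 0.213, 0.137, 0.0757 and 0.0669).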

How the data were processed

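Total RNA of 20 embryos per sample was labelled with biotin by a small sample assay, per the labels' protocols. The authors deposited intensity values that MAS5, named in the submitters' processing notes, had computed for every probe set, without a log. Its version and target value were not stated there. All 8 arrays share a trimmed mean of 150, so no scaling was added. No arrays held identical values, and the precision is limited by having 8 of them.

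A floor of 1 was set before taking log2. Of 45037 probe sets left after 64 controls, the upper 50% by mean log2 signal (22518, at least 5.25) were tested two-sided in R 4.3.3. limma 3.58.1 fitted group means, and its eBayes step allowed the variance to depend on intensity. Adjustment was by Benjamini-Hochberg over all tested probe sets, at a threshold of 0.05. The background bound was the 95th percentile of 27 Bacillus control probe sets per array. "At least" folds set the brighter group's mean log2 signal against this bound. Gene symbols came from the platform annotation. Of 34945 probe sets with 1 symbol, sets with a gene identifier were checked against RefSeq (34741 matched, 0 symbols changed); 932 had several symbols and 9160 none. A list gene was read by its brightest tested probe set. The fit was tested on simulated data.

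Named were all members, Smarca4, the 2 genes ranking first by p in each list, all list genes that passed, Figla, Furin, Cd81, Igsf8, Ptgfrn and Plau, and the genes of most similar profile. List genes that passed beyond the first 2, and Itgav, Omt2a, Bmp15 and Bmp1, were named after their values were seen. The members and lists were chosen with earlier results of these data known. Alternatives were other scalings, filters and floors, no trend, weights per array, a block for replicate number, and samples left out singly or by mutant pair. The division into mutant pairs was itself made after the granulosa signal had been seen. Centring on other oocyte transcripts, with and without Zar1 and H1f8, and the CACGTG search were also added after the data were seen.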

Additional observations from a re-analysis of the deposited data

Results flagged for a closer look

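Among the 16 sets of 4 values formed by the 8 member probe sets in each group, 2 held a sample far from the other 3, both in mutant replicate 2. Zp2 read 1776.1 there, with a gap to the nearest mutant sample of 0.866 of the group's range on the log2 scale, and Izumo1r read 466.2, with a gap of 0.832. Both gaps passed Dixon's 95% critical value for 4 samples, which chance passes in about 1 of 20 such groups.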

How the results depend on the processing

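The first Plat probe set kept a positive log2 change under all 21 alternatives, from 0.56 to 1.23, with limma adjusted p between 0.000592 and 0.115. The count of member calls, 1 in the main analysis, was 0 with centring on the 75th percentile or on other oocyte transcripts without Zar1 and H1f8, 2 with array weights (Plat higher, Izumo1r lower), 2 without mutant replicates 3 and 4, and 0 to 1 when 1 sample was left out. Over all probe sets 1478 calls became 11486 with array weights, 9358 without mutant replicates 1 and 2, 4883 (157 higher, 4726 lower) with centring on other oocyte transcripts, and 73 to 2926 when 1 sample was left out. Calls among 76 list genes went from 12 to 52 with array weights, 41 without mutant replicates 1 and 2, and 2 to 19 when 1 sample was left out. Scaling moved the median log2 change of all probe sets from -0.05 to -0.14 (quantile), -0.22 (median), -0.19 (75th percentile) and -0.58 (other oocyte transcripts), and the split of calls from 671 higher and 807 lower to 490 and 795, 421 and 1557, 496 and 1104, and 157 and 4726. Without a filter it was 642 and 589. The median log2 change of the 8 member probe sets, 0.40 in the main analysis, was -0.11 with array weights and -0.13 with centring on other oocyte transcripts. Over all probe sets these 2 settings gave -0.14 and -0.58.

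Log2 changes that turned sign were those of Zp3 (0.051 with quantile normalization, 0.41 without mutant replicates 3 and 4, and -0.17 to 0.17 when 1 sample was left out), Zp1 (-0.16 with array weights, -0.27 without mutant replicates 1 and 2, -0.16 centred on other oocyte transcripts), Astl (-0.052, -0.13 and -0.027 in the same order) and Zp2 (-0.092 centred on other oocyte transcripts). Of the 76 list genes, 28 turned sign when either mutant pair was left out, 0 of which were called over all arrays. Among the other named list genes, those that turned sign were Folr2 (-0.031 with quantile normalization, -0.077, -0.045 and -0.43 centred on the median, the 75th percentile and other oocyte transcripts, -0.16 centred on the latter without Zar1 and H1f8, -0.18 with array weights, -0.34 without mutant replicates 1 and 2, and -0.28 to 0.26 when 1 sample was left out), Mep1a (-0.12 without mutant replicates 1 and 2, -0.22 centred on other oocyte transcripts), Cuzd1 (0.49 without mutant replicates 3 and 4, -0.57 to 0.29 when 1 sample was left out) and Igsf8 (-0.65 without mutant replicates 3 and 4). No call was attached to these changes in the main analysis, and the cause was not tested.

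Deviations of same-numbered samples correlated at 0.024, -0.18, -0.13 and -0.087. These values cannot decide whether the replicate numbers pair the samples, because the difference between the mutant pairs enters the mutant deviations. With the replicate block, 15 probe sets, 0 members and 1 list gene were called, and Plat had a limma adjusted p of 0.0915. Cd9 and the dim Plat probe set were not among the upper 30%.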
